A study of Drosophila melanogaster with 16 samples.

Results

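The heat shock proteins and their cochaperones were followed in sorted neural stem cells of the Drosophila melanogaster larval brain and in the daughter cells these stem cells produced in culture. The set held 29 of the 16364 genes in the deposited tables. It took every gene whose symbol begins with Hsp and a digit or with Hsc70, together with Hsromega, Hsf, DnaJ-1, l(2)efl and stv. The rule used gene symbols alone, but it was set with earlier results of these data known. Polyadenylated RNA was sequenced from 16 libraries of type I neuroblasts (NBs), the stem cells, and ganglion mother cells (GMCs), the daughters that go on to form neurons. All groups were labelled wild type and came from flies raised at 25C that carried UAS-dcr2, ase-GAL4 and UAS-stinger::GFP, so the GFP used for sorting was driven in the cells where ase-GAL4 is active. NBs from wandering L3 larvae were sorted, cultured for 1.5, 3 or 5 h while they kept dividing, and sorted again with the GMCs born in the dish. There were 3 libraries of NBs at each age, 3 of GMCs at 1.5 h, and 2 of GMCs at 3 h and at 5 h.

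Heat shock proteins are chaperones that keep other proteins folded. Members of the Hsp70 family bind unfolded stretches of protein in cycles driven by ATP, J-domain proteins such as DnaJ-1 deliver clients to them, and nucleotide exchange factors release the clients. The Hsp90 protein, called Hsp83 in flies, acts later on client proteins such as kinases, while small heat shock proteins hold unfolded proteins until the Hsp70 machinery takes over. Heat shock factor, Hsf, switches on the inducible genes under stress, the cognate Hsc70 genes are active without stress, and several fly small heat shock genes are also under developmental control.

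Total counts in genes ran from 6899670 to 21207182 per library. The summed level of 10 GMC and neuron markers was 906 to 1242 CPM (read counts scaled for library depth) in NBs and 5870 to 8805 in GMCs at 1.5 h, 788 to 948 and 4673 to 5708 at 3 h, and 1047 to 2013 and 11544 to 14553 at 5 h. Of these 10 markers, 10, 9 and 5 were called higher in GMCs at 1.5, 3 and 5 h and 0 lower. All marker counts here stand beside 8.59%, 10.2% and 14.8% of all genes tested called higher in GMCs at the 3 ages. The shares called lower were 8.97%, 10.5% and 14.0%. Of 7 NB markers, 5, 4 and 3 were called lower in GMCs and 0, 2 and 2 higher. Their summed level separated the cell types at 1.5 h (3226 to 3903 CPM in NBs and 2624 to 2943 in GMCs) and overlapped at 3 h (2240 to 2438 and 2107 to 2312) and 5 h (3033 to 4301 and 3360.1 to 3820.2). Markers of other cells were also read. The sum of 9 glial markers was 682 to 831 CPM in NBs and 594 to 785 in GMCs at 1.5 h. It was 638 to 779 and 875 to 882 at 3 h, and 538 to 664 and 1043 to 1082 at 5 h. Eaat1 alone averaged 266 CPM in NBs and 676 in GMCs at 5 h. At each age 3 glial markers were called higher in GMCs and 0 lower, with median log2 fold changes of 1.02, 0.39 and 0.09. The marker repo, which defines glia, was at 0.802 to 4.79 CPM in all libraries. Hemocyte and fat body markers summed to 29.9 to 33.0 CPM in NBs and 27.5 to 34.0 in GMCs at 1.5 h. These sums were 38.3 to 153 and 103 to 121 at 3 h, and 25.8 to 68.7 and 19.9 to 32.7 at 5 h. Of 8 tested, 0, 1 and 1 were called lower in GMCs and 0 higher, and the hemocyte marker He had no counts in NBs at 1.5 h or GMCs at 3 h. Muscle and epithelial markers summed to 372 to 495 CPM in NBs and 399 to 557 in GMCs at 1.5 h. Their sums were 311 to 479 and 749.9 to 821 at 3 h, and 645 to 787 and 1130 to 1766 at 5 h. Most of the 5 h sum was shg, with means of 678 CPM in NBs and 1432 in GMCs. Mhc (1.69 and 3.66 CPM) and Mlc2 (6.79 and 1.05) were far lower at that age and went opposite ways. Of 9 tested, 0, 2 and 1 were called higher in GMCs and 0 lower, and Act88F had no counts in GMCs at 5 h. The part of such cells in the results below was not tested. In pooled cells, fewer cells of a type and less RNA per cell cannot be told apart. Each age was on its own flow cell by the file names, so age and sequencing run cannot be told apart, whereas NBs and GMCs of 1 age shared a flow cell. P-values measure only the spread between libraries, which may be technical.

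The housekeeping chaperones Hsp83 and Hsc70-4 had the highest mean levels of the set. Levels between genes are compared as CPM per kilobase of exon (CPM/kb), averaged over the 6 groups. Hsp83 was highest with 1844 CPM/kb, followed by Hsc70-4, the constitutive cytosolic Hsp70, with 1494, and by the small heat shock protein genes Hsp23 with 1144, Hsp26 with 517 and Hsp27 with 379. Hsc70-3, the Hsp70 of the endoplasmic reticulum, came next with 272 CPM/kb. Hsp83 and Hsc70-4 overlapped in range over the groups (1426 to 2590 and 1140 to 1767 CPM/kb), as did Hsc70-4 and Hsp23 (227 to 1740 CPM/kb). These pairs of neighbours do not separate beyond the spread between groups, whereas Hsp23 was above Hsp26 in each of the 6 groups. By reads placed at a unique site, the inducible Hsp70 genes lay far below, from 23.2 CPM/kb for Hsp70Bb to 0.0515 for Hsp70Ab. These copies are near-identical and reads placed at no unique site were not counted, so their levels may be understated. The 29 genes together took 2.06% ± 0.136 (SD, n = 3), 1.82% ± 0.0447 (n = 3) and 1.91% ± 0.0705 (n = 3) of gene counts in NBs at 1.5, 3 and 5 h, and 1.59% ± 0.183 (n = 3), 1.38% ± 0.017 (n = 2) and 1.45% ± 0.024 (n = 2) in GMCs. At each age every GMC library was below every NB library in this share. The share is of raw gene counts, without the scaling between libraries behind the CPM levels. It therefore does not show that the summed CPM of the set was lower in GMCs. Hsp83 supplied 30.2% of the set's counts, Hsc70-4 24.1% and Hsromega 12.4%.

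**Figure D1:**
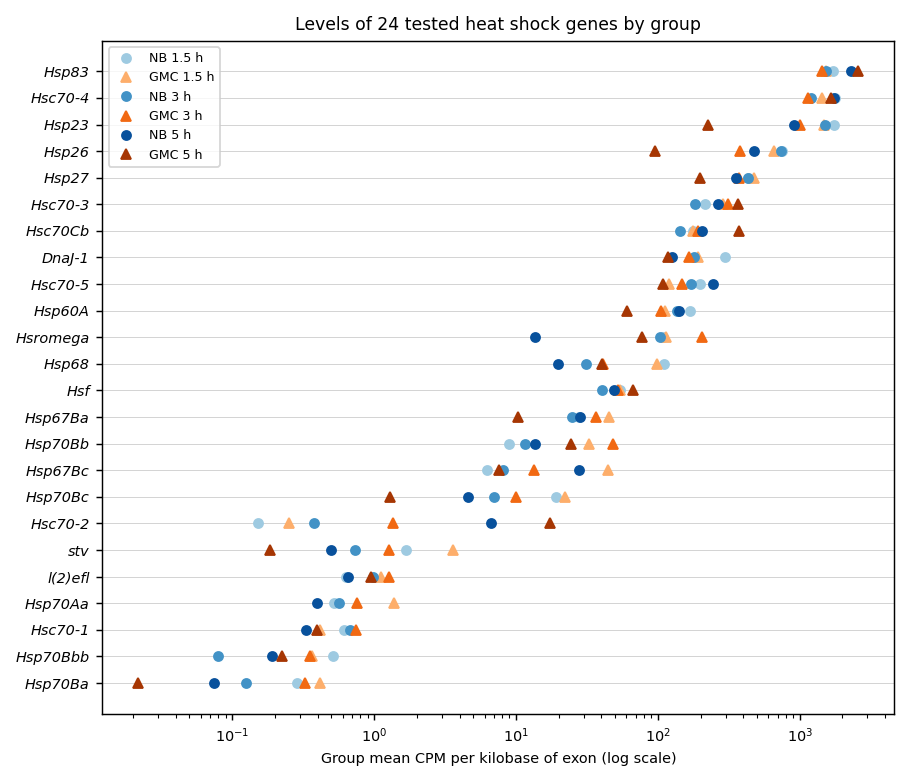
Group mean CPM per kilobase of exon, on a log axis, for the 24 heat shock genes that entered the tests, ordered by their mean; circles are NBs, triangles GMCs, and a group mean of 0 is not drawn (Hsp70Aa in GMCs at 5 h). Hsp83 and Hsc70-4 stay near the top in all groups, while Hsp23, Hsp26, Hsp67Bc, Hsromega and Hsc70-2 spread widely between groups.

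Of the 29 genes, 24 had enough counts to be tested. Hsp22 had no counts in any of the 16 libraries. All of its exons lie inside exons of CG4456 on the same strand in the annotation, so these data hold no reading of Hsp22 and set no upper limit on it. For a gene with exons of its own, a count of 0 allows up to 0.141 to 0.435 CPM by library, taking 3 counts as the floor. These limits use raw counts in genes as the depth, not the scaled library sizes behind the CPM levels. Hsp60B, Hsp60C and Hsp60D, relatives of the mitochondrial chaperonin, had 17, 10 and 74 counts over all libraries, and Hsp70Ab had 28. Hsc70-1, Hsp70Ba, Hsp70Bbb and l(2)efl, a small heat shock protein gene, were tested at 0.936 CPM/kb or less and were called in none of the 9 comparisons by the main test.

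Of the 24 tested genes, 4 differed between daughters and stem cells at 1.5 h, 4 at 3 h and 11 at 5 h, where 4 of the 8 lower genes were small heat shock protein genes. A gene was called when its Benjamini-Hochberg adjusted p over all 10913 genes tested was under 0.05 in edgeR's quasi-likelihood test. At 1.5 h, 2 of the 24 were higher and 2 lower in GMCs, where 8.59% and 8.97% of all genes tested were called higher and lower. At 3 h, 3 were higher and 1 lower, beside 10.2% and 10.5% of all genes. At 5 h, 3 were higher and 8 lower, beside 14.8% and 14.0% of all genes. The lower genes at 5 h were 4 small heat shock protein genes, Hsp70Aa, Hsp70Bc and both mitochondrial chaperone genes, Hsc70-5 and Hsp60A. Median log2 fold changes of the 24 were 0.05, 0.41 and -0.09 at the 3 ages, against 0.04, 0.07 and -0.12 over all genes tested.

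**Figure D2:**
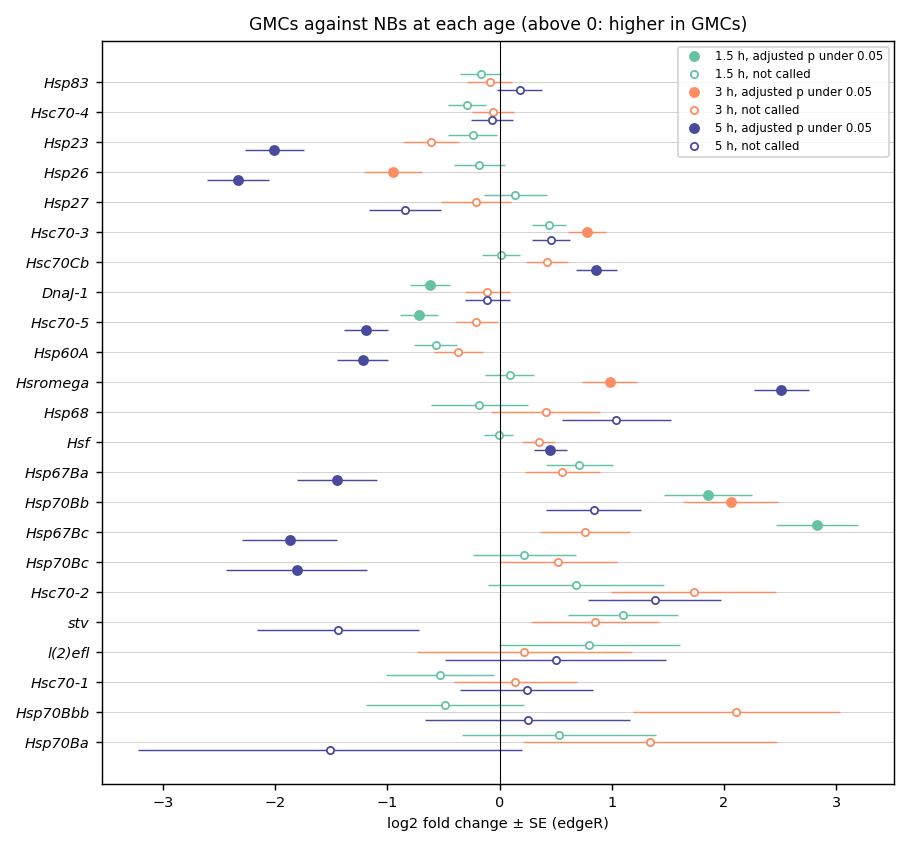
GMCs against NBs at 1.5, 3 and 5 h, as log2 fold change ± SE (edgeR), for 23 heat shock genes; filled points have an adjusted p under 0.05. Hsp70Aa is left out because it had no counts in GMCs at 5 h. Filled points at 5 h lie far to the left for Hsp23, Hsp26, Hsp67Ba and Hsp67Bc and far to the right for Hsromega.

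By 5 h, 4 of the 5 tested small heat shock protein genes of a cluster on 3L were lower in GMCs than in NBs. Hsp67Bc, Hsp22, Hsp26, Hsp67Ba, Hsp23 and Hsp27 lie within 14.2 kb on chromosome 3L, from 9371511 to 9385694 in release 6 of the genome, and all but Hsp22 have a single exon. Hsp23 stood at 1731, 1517 and 1366 CPM in NBs at 1.5 h and at 1272, 1312 and 1329 in GMCs. At 3 h it stood at 1831, 979 and 1212 in NBs and 814 and 947 in GMCs, and at 5 h at 1050.5, 692 and 679 in NBs and 212 and 189 in GMCs. All NB libraries were above all GMC libraries at every age, by a narrow margin at 1.5 and 3 h and by a wide one at 5 h. At 5 h Hsp23 was 4.02-fold lower in GMCs (log2 fold change -2.01 ± 0.263 (SE), edgeR adjusted p = 3.54e-05), while at 1.5 h its log2 fold change was -0.24 and at 3 h -0.61, neither called (adjusted p = 0.509 and 0.0943). The 3 h value was called in 4 of 23 alternative fits, among them DESeq2 (adjusted p = 0.0406) and removal of a gene-length trend (0.0132).

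Hsp26 followed the same course. It was at 779.9, 741 and 745 CPM in NBs and 702, 673 and 628 in GMCs at 1.5 h, and at 1123, 517 and 588 in NBs and 389.9 and 381 in GMCs at 3 h. At 5 h the NB libraries held 576, 454 and 422 CPM and the GMC libraries 95.6 and 96.7. The groups did not overlap at any age, and the GMC libraries at 5 h were the lowest of all 16. It was 1.93-fold lower in GMCs at 3 h (log2 -0.95 ± 0.258, adjusted p = 0.0154) and 5.03-fold lower at 5 h (log2 -2.33 ± 0.276, adjusted p = 1.35e-05). The call at 3 h was lost without GMC replicate 1 (adjusted p = 0.108), without GMC replicate 2 (0.105) and when only the 3 h groups were fitted (0.0872).

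Hsp67Bc, a small heat shock protein gene whose product works with the cochaperone starvin in fly cells, changed sides. It was at 6.67, 6.42 and 5.43 CPM in NBs and 27.6, 53.2 and 51.3 in GMCs at 1.5 h. At 3 h it was at 13.9, 5.61 and 4.53 in NBs and 12.2 and 14.3 in GMCs, and at 5 h at 25.0, 21.5 and 35.7 in NBs and 7.28 and 7.72 in GMCs. The GMC libraries were all above the NB libraries at 1.5 h and all below them at 5 h, and the groups overlapped at 3 h. Thus Hsp67Bc was 7.13-fold higher in GMCs at 1.5 h (log2 2.83 ± 0.367, adjusted p = 0.000114) and 3.65-fold lower at 5 h (log2 -1.87 ± 0.423, adjusted p = 0.0032). At 3 h the log2 fold change was 0.76, not called (adjusted p = 0.202), and rose to 1.40 (adjusted p = 0.00732) without NB replicate 1 of that age.

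Hsp67Ba was at 53.0, 62.8 and 29.8 CPM in NBs and 111, 69.6 and 56.7 in GMCs at 1.5 h. At 3 h it was at 60.8, 37.6 and 31.5 in NBs and 75.2 and 52.7 in GMCs, and at 5 h at 51.8, 43.6 and 51.4 in NBs and 19.6 and 16.3 in GMCs. The groups overlapped at the earlier ages and separated at 5 h, where Hsp67Ba was 2.72-fold lower in GMCs (log2 -1.45 ± 0.358, edgeR adjusted p = 0.006). That call was lost without GMC replicate 2 at 5 h (adjusted p = 0.0772). An antisense RNA, asRNA:CR43481, covers 75.9% of the Hsp67Ba exon, and the library kit does not mark strand, so their reads cannot be told apart. Hsp27 was at 798, 746 and 584 CPM in NBs and 988, 743 and 617 in GMCs at 1.5 h, at 1154, 468 and 483 in NBs and 652 and 557 in GMCs at 3 h, and at 612, 594 and 545 in NBs and 308 and 343 in GMCs at 5 h. The 5 h groups did not overlap, but the log2 fold change of -0.84 was not called (adjusted p = 0.0592). It was called in 7 of the 23 alternatives, among them DESeq2 (adjusted p = 0.0349), the replicate block (0.012) and a fit of only the groups compared (0.0199), with adjusted p from 0.00376 to 0.242 over all of them. NB replicate 1 at 3 h held the highest Hsp23, Hsp26 and Hsp27 of all 16 libraries, which widened the spread of these genes at that age.

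**Figure D3:**
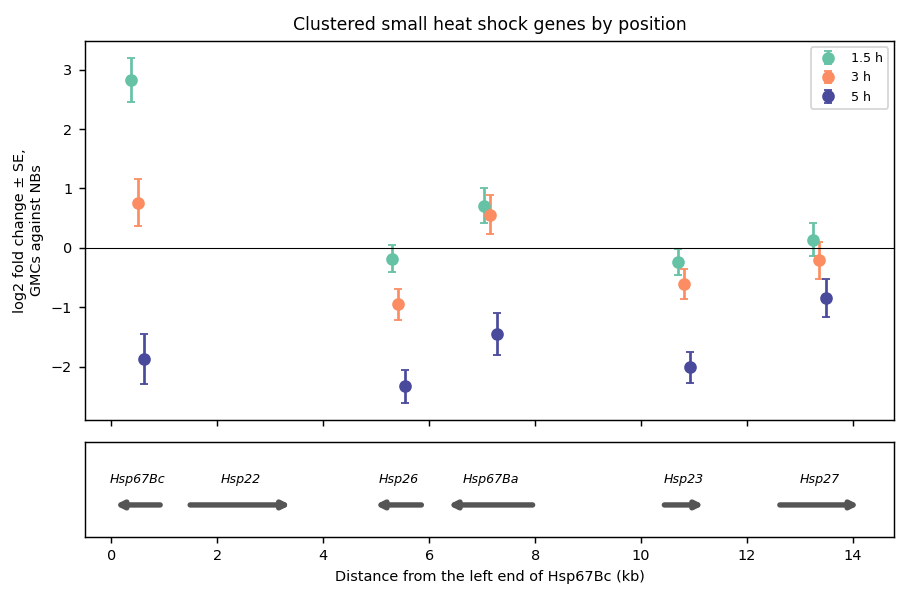
GMCs against NBs, as log2 fold change ± SE (edgeR), at 1.5, 3 and 5 h for the tested small heat shock genes of the chromosome 3L cluster, placed near the middle of each gene (ages set slightly apart), in kb from the left end of Hsp67Bc; arrows below show the genes and their strand. All 5 tested genes lie below 0 at 5 h, where 4 were called, and Hsp67Bc alone lies far above 0 at 1.5 h.

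Among the inducible Hsp70 genes, Hsp70Bb was higher in GMCs at 1.5 and 3 h. There are 6 near-identical copies, and with 21.71% to 33.42% of reads placed at no unique site the division of reads between copies is uncertain. Such reads were not counted for any gene, so the level of each copy may also be understated. Hsp70Bb was at 26.1, 22.3 and 14.7 CPM in NBs and 121, 57.5 and 50.9 in GMCs at 1.5 h. It was at 48.5, 14.4 and 18.8 in NBs and 107 and 119 in GMCs at 3 h, and at 33.1, 34.7 and 28.4 in NBs and 65.5 and 49.6 in GMCs at 5 h. Every GMC library was above every NB library of its age. Hsp70Bb was 3.64-fold higher in GMCs at 1.5 h (log2 1.86 ± 0.391, edgeR adjusted p = 0.00375) and 4.18-fold higher at 3 h (log2 2.06 ± 0.424, adjusted p = 0.00248), while the log2 fold change of 0.84 at 5 h was not called (adjusted p = 0.149).

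Hsp70Bc was lower in GMCs at 5 h. It was at 30.5, 50.1 and 55.3 CPM in NBs and 28.8, 74.9 and 54.4 in GMCs at 1.5 h, at 28.4, 10.5 and 10.8 in NBs and 28.1 and 19.3 in GMCs at 3 h, and at 20.0, 8.25 and 4.69 in NBs and 3.44 and 2.77 in GMCs at 5 h. The groups overlapped at 1.5 and 3 h, and at 5 h both GMC libraries were below all NB libraries (log2 -1.81 ± 0.625, adjusted p = 0.0386). That call was lost at 5 h on dropping NB replicate 1 (log2 -1.05, adjusted p = 0.186) and on dropping GMC replicate 1 (0.136) or 2 (0.2), when only those groups were fitted (0.0858) and when CR43283 was left out of the scaling (0.0521). Hsp70Aa had no counts in either GMC library at 5 h and 2.08, 0.731 and 0.0 CPM in the NB libraries. These groups overlapped at 0, and the NB mean of 0.938 CPM leaned on replicate 1. By group means Hsp70Aa was lower in GMCs (edgeR adjusted p = 0.0362), with no fold given because the GMC libraries held no counts. Its call did not hold once a 5 h library was dropped: adjusted p was 0.136 minus NB replicate 1, 0.163 minus GMC replicate 1 and 0.152 minus GMC replicate 2.

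Summing the 6 Hsp70 copies, an alternative chosen after the data were seen, gave 58.6, 75.6 and 74.4 CPM in NBs and 154, 140 and 110.5 in GMCs at 1.5 h. At 3 h the sums were 80.6, 26.0 and 30.6 in NBs and 139 and 141 in GMCs, and at 5 h 56.4, 44.1 and 33.4 in NBs and 69.9 and 52.6 in GMCs. GMC libraries were above NB libraries at 1.5 and 3 h, and the groups overlapped at 5 h. The sum does not bring back reads placed at no unique site. The summed log2 fold changes were 0.95 ± 0.321 at 1.5 h (edgeR adjusted p = 0.0495), 1.62 ± 0.355 at 3 h (0.00384) and 0.46 ± 0.359 at 5 h (0.369). Hsp68, a further stress-inducible Hsp70, showed no called difference between the cell types at any age, with log2 fold changes of -0.18, 0.41 and 1.04 (adjusted p = 0.825, 0.615 and 0.122). At 5 h its GMC libraries lay above its NB libraries, and the fit with the replicate block called it higher in GMCs (log2 0.84, adjusted p = 0.0435), alone among the 23 alternatives, over which adjusted p reached 0.537.

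**Figure D4:**
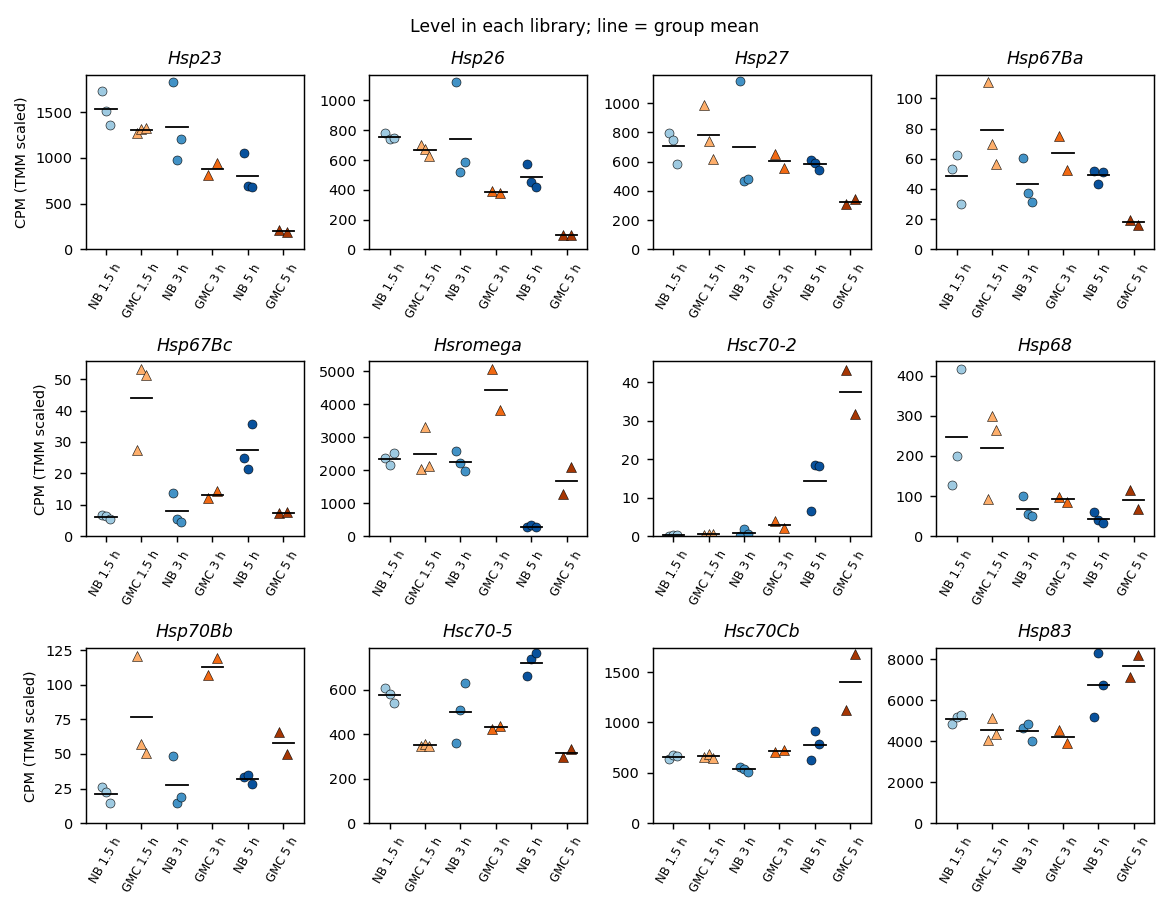
CPM in each library for 12 heat shock genes, on linear axes from 0; circles are NBs, triangles GMCs, and lines the group means. Hsp23 and Hsp26 fall to their lowest in GMCs at 5 h, Hsromega falls in NBs at 5 h, and Hsc70-2 is near 0 until 5 h.

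Both mitochondrial chaperone genes of the set were lower in GMCs at 5 h, and Hsc70-3 of the endoplasmic reticulum was higher in GMCs at 3 h. Hsc70-5, the Hsp70 of the mitochondrial matrix, was at 608, 581 and 539 CPM in NBs and 347, 354 and 346 in GMCs at 1.5 h. It was at 361, 507 and 628 in NBs and 423 and 437 in GMCs at 3 h, and at 662, 735 and 762 in NBs and 298 and 332 in GMCs at 5 h. The groups separated at 1.5 and 5 h and overlapped at 3 h, where NB replicate 1 was low. Hsc70-5 was 1.65-fold lower in GMCs at 1.5 h (log2 -0.72 ± 0.171, edgeR adjusted p = 0.00793) and 2.28-fold lower at 5 h (log2 -1.19 ± 0.198, adjusted p = 0.00028). Its log2 fold change of -0.21 at 3 h was not called (adjusted p = 0.484).

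Hsp60A, the mitochondrial chaperonin that folds imported proteins, was at 389, 442 and 422 CPM in NBs and 276, 246 and 322 in GMCs at 1.5 h. At 3 h it was at 246, 311 and 461 in NBs and 230.4 and 295 in GMCs, and at 5 h at 348, 351 and 358 in NBs and 152 and 149.9 in GMCs. NB libraries were above GMC libraries at 1.5 and 5 h. The difference was called at 5 h, where Hsp60A was 2.33-fold lower in GMCs (log2 -1.22 ± 0.226, adjusted p = 0.000668). The log2 fold changes of -0.57 at 1.5 h and -0.37 at 3 h were not called (adjusted p = 0.0517 and 0.261), and the 1.5 h value was called in 9 of the 23 alternatives, among them DESeq2 (0.0269), the replicate block (0.0179) and a fit of only the groups compared (0.0135), with a range of 0.0135 to 0.19 over all of them. Hsc70-3 was at 789, 773 and 739.9 CPM in NBs and 977, 1109 and 1035 in GMCs at 1.5 h, 618, 615 and 724 in NBs and 1129 and 1113 in GMCs at 3 h, and 822, 1129.8 and 915 in NBs and 1189 and 1437 in GMCs at 5 h. Every GMC library was above every NB library of its age, and the 1.72-fold difference at 3 h was called (log2 0.78 ± 0.168, adjusted p = 0.00343). The log2 fold changes of 0.44 and 0.46 at 1.5 and 5 h missed the threshold (adjusted p = 0.0571 and 0.0514) and passed it in 9 and 6 of the 23 alternatives, among them DESeq2 (0.00729 and 0.00659) and median-ratio scaling (0.0443 and 0.0333), while over all of them adjusted p reached 0.183 and 0.348.

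The abundant cytosolic pair showed no called difference between the cell types. Hsp83 was at 4820.3, 5193 and 5268 CPM in NBs and 4082, 5131 and 4373 in GMCs at 1.5 h, at 4649, 4839 and 4007 in NBs and 4539 and 3904 in GMCs at 3 h, and at 5164, 8318 and 6763 in NBs and 7121 and 8211 in GMCs at 5 h. Hsc70-4 was at 5099, 4363 and 4933 CPM in NBs and 3582, 4071 and 4126 in GMCs at 1.5 h, at 2872, 3586 and 3255 in NBs and 3178 and 3014 in GMCs at 3 h, and at 3809, 5524 and 4918 in NBs and 4179 and 4883 in GMCs at 5 h. The groups overlapped for both genes at every age except for Hsc70-4 at 1.5 h. Log2 fold changes were -0.17, -0.09 and 0.18 for Hsp83 (adjusted p = 0.582, 0.804 and 0.527) and -0.29, -0.06 and -0.07 for Hsc70-4 (0.269, 0.857 and 0.817).

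Hsromega, a long nuclear RNA that gathers RNA-binding proteins in speckles and is induced by heat, moved more than any protein-coding member at 5 h in NBs apart from Hsc70-2. It was at 2381, 2150.4 and 2519 CPM in NBs and 2048, 3312 and 2142 in GMCs at 1.5 h, at 2584, 2206 and 1982 in NBs and 5060.2 and 3834 in GMCs at 3 h, and at 275, 330.1 and 283 in NBs and 1269 and 2111 in GMCs at 5 h. The groups overlapped at 1.5 h and separated at 3 and 5 h. Hsromega was 1.97-fold higher in GMCs at 3 h (log2 0.98 ± 0.242, edgeR adjusted p = 0.00836) and 5.71-fold higher at 5 h (log2 2.51 ± 0.246, adjusted p = 2.31e-06). The 3 h call was lost without GMC replicate 1 of that age (log2 0.77, adjusted p = 0.136) and when a trend on gene length was removed (log2 0.11, adjusted p = 0.837); Hsromega spans 21.71 kb on 3R, the longest transcript of the set. Hsf, the transcription factor of the response, was at 142, 163 and 170.3 CPM in NBs and 153, 162 and 156 in GMCs at 1.5 h, at 112, 130.3 and 114 in NBs and 152 and 151 in GMCs at 3 h, and at 145, 144 and 136 in NBs and 177 and 209 in GMCs at 5 h. The groups separated at 3 and 5 h, and the 1.36-fold difference at 5 h was called (log2 0.45 ± 0.147, adjusted p = 0.0306). That call was lost in 6 alternatives, among them dropping GMC replicate 2 (adjusted p = 0.268) or NB replicate 3 (0.0879) of that age and GMC replicate 3 at 1.5 h (0.0736).

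Among the partners of Hsp70, Hsc70Cb, an Hsp110 that exchanges its nucleotide, rose in GMCs. It was at 638, 674 and 665 CPM in NBs and 659.9, 687 and 646 in GMCs at 1.5 h, at 557, 538 and 510.4 in NBs and 711 and 723 in GMCs at 3 h, and at 628, 911 and 785 in NBs and 1125 and 1678 in GMCs at 5 h. The groups overlapped at 1.5 h and separated afterwards, with a 1.81-fold difference at 5 h (log2 0.86 ± 0.184, edgeR adjusted p = 0.00217). It was lost without GMC replicate 2 at 5 h (log2 0.53, adjusted p = 0.0966). DnaJ-1, the J-domain protein, was at 612, 645 and 674 CPM in NBs and 367, 483 and 404 in GMCs at 1.5 h, without overlap, and was 1.54-fold lower in GMCs (log2 -0.62 ± 0.181, adjusted p = 0.0251). That call was lost when NB replicate 1, 2 or 3 (adjusted p = 0.0518, 0.0702 and 0.0779) or GMC replicate 1 (0.111) of that age was left out and with CR43283 left out of the scaling (0.0509). At 3 h DnaJ-1 was at 494, 305 and 363 in NBs and 413 and 305 in GMCs, and at 5 h at 289.7, 253 and 275 in NBs and 243 and 263 in GMCs, with overlapping groups and no call. Starvin, stv, a BAG domain cochaperone, was at 6.57, 6.07 and 5.8 CPM in NBs and 5.53, 14.1 and 20.1 in GMCs at 1.5 h, at 3.05, 2.42 and 2.59 in NBs and 2.26 and 7.06 in GMCs at 3 h, and at 2.91, 0.627 and 1.94 in NBs and 0.506 and 0.844 in GMCs at 5 h. The groups overlapped at every age and no difference between cell types was called.

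Whether the gap between the cell types changed with age was tested directly. From 1.5 h to 3 h, 0 of the 24 genes passed in edgeR, as did 0.0% of all genes tested, while 4 had an unadjusted p under 0.05 and DESeq2 called 1 (Hsp67Bc). From 1.5 h to 5 h, 2 changed towards GMCs and 5 towards NBs, beside 6.59% and 6.59% of all genes. Hsp67Bc changed most among those with counts in every group (log2 change of the difference -4.70 ± 0.566, edgeR adjusted p = 0.000191). Hsp26 (-2.15 ± 0.347, adjusted p = 0.00106), Hsp67Ba (-2.15 ± 0.464, 0.00644) and Hsp23 (-1.77 ± 0.333, 0.00279) shifted the same way, and so did Hsp70Aa (adjusted p = 0.0356), which rests on the 5 h GMC libraries at 0. Hsromega shifted towards GMCs (2.42 ± 0.328, adjusted p = 0.000333), and so did Hsc70Cb (0.84 ± 0.249, adjusted p = 0.0346). The Hsp70Aa call was lost in 8 alternatives, all of them leaving out a library (adjusted p up to 0.13), and the Hsc70Cb call in 12, 11 of them leaving out a library (up to 0.238, without GMC replicate 2 at 5 h). Median log2 changes of the 24 were 0.26 to 3 h and -0.38 to 5 h, against -0.03 and -0.14 over all genes.

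In NBs, Hsc70-2 and Hsp67Bc rose by 5 h while Hsromega, DnaJ-1, Hsp68 and 3 further members fell. At 3 h against 1.5 h, 0 of the 24 were called in edgeR, beside 0.101% of all genes, with 7 at an unadjusted p under 0.05 and 3 called by DESeq2. At 5 h, 2 were higher and 6 lower, beside 7.28% and 4.0% of all genes, and the median log2 fold change was -0.26 against 0.06 over all genes. Hsc70-2, a cognate Hsp70 gene on 3R, was at 0.19, 0.344 and 0.453 CPM at 1.5 h, 0.0, 1.87 and 0.575 at 3 h, and 6.45, 18.5 and 18.3 at 5 h. All 5 h libraries were above all others (log2 5.40 ± 0.702, edgeR adjusted p = 0.000296). Hsp67Bc was 4.44-fold higher at 5 h (log2 2.15 ± 0.361, adjusted p = 0.00171). Hsromega was 7.95-fold lower (log2 -2.99 ± 0.236, adjusted p = 1.73e-06) and DnaJ-1 2.36-fold lower (log2 -1.24 ± 0.183, adjusted p = 0.000773), both without overlap.

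Hsp68 in NBs was at 128, 200.3 and 416 CPM at 1.5 h, 100.5, 55.4 and 50.9 at 3 h, and 59.5, 40.0 and 32.5 at 5 h, and was 5.64-fold lower at 5 h (log2 -2.50 ± 0.46, edgeR adjusted p = 0.00295). Its 1.5 h libraries varied widely but lay above all 5 h libraries. In GMCs Hsp68 was at 91.9, 299 and 265 CPM at 1.5 h and at 114 and 66.8 at 5 h, with overlap and no call in the main test. There 6 of the 23 alternatives called it lower at 5 h, among them DESeq2 (log2 -1.26, adjusted p = 0.0339). Hsp70Bc was 4.13-fold lower (log2 -2.05 ± 0.489, adjusted p = 0.0141; 0.0643 without NB replicate 3 at 5 h). Hsp23 was 1.91-fold lower (log2 -0.93 ± 0.219, adjusted p = 0.0129; 0.0636 without NB replicate 1 at 1.5 h and 0.0716 without NB replicate 3 at 5 h). Starvin was 3.35-fold lower (log2 -1.75 ± 0.532, adjusted p = 0.0439), a call lost in 11 of 23 alternatives, with an adjusted p of 0.127 without NB replicate 1 at 1.5 h. Hsp26 was lower in NBs at 5 h without overlap but was not called (log2 -0.64, edgeR adjusted p = 0.0764). It was called in 5 of the 23 alternatives, among them DESeq2 (adjusted p = 0.0448). Without NB replicate 3 at 5 h, 5 of the 24 were called in place of 8.

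In GMCs the 5 tested small heat shock genes of the 3L cluster and the cochaperone starvin were lower at 5 h than at 1.5 h, while the small heat shock gene l(2)efl was not called (log2 -0.27, edgeR adjusted p = 0.855). At 3 h against 1.5 h, 1 of the 24 was called, beside 2.96% of all genes, with 8 at an unadjusted p under 0.05: Hsp67Bc was 3.3-fold lower (log2 -1.72 ± 0.413, edgeR adjusted p = 0.0346). It was lost without GMC replicate 2 or 3 at 1.5 h (adjusted p = 0.108 and 0.124), GMC replicate 1 or 2 at 3 h (0.353 and 0.132) or NB replicate 2 at 1.5 h (0.0533). At 5 h against 1.5 h, 3 were higher and 10 lower, beside 17.0% and 13.3% of all genes, with a median log2 fold change of -0.69 against -0.13 over all genes. Hsp26 was 6.95-fold lower (log2 -2.80 ± 0.283, adjusted p = 4.2e-06), Hsp23 6.5-fold (log2 -2.70 ± 0.272, 4.07e-06), Hsp67Bc 5.87-fold (log2 -2.55 ± 0.433, 0.000416), Hsp67Ba 4.4-fold (log2 -2.14 ± 0.367, 0.000448) and Hsp27 2.4-fold (log2 -1.27 ± 0.326, 0.00793). The Hsp27 call was lost without GMC replicate 1 or 2 at 5 h (0.0709 and 0.0541).

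Starvin was 19.5-fold lower in GMCs at 5 h than at 1.5 h (log2 -4.29 ± 0.725, edgeR adjusted p = 0.000404) and Hsp70Bc 16.8-fold lower (log2 -4.07 ± 0.657, adjusted p = 0.000278), with no overlap in either. Hsp70Aa was at 3.0, 4.88 and 1.96 CPM in GMCs at 1.5 h and at 0 at 5 h, and was called lower. The 6 Hsp70 copies summed were also lower (log2 -1.14 ± 0.371, adjusted p = 0.0291). Hsp60A (log2 -0.90) and DnaJ-1 (log2 -0.73) were also lower. The Hsp60A call was lost without GMC replicate 2 at 5 h (0.0583) and the DnaJ-1 call without GMC replicate 2 at 1.5 h (0.0542) or GMC replicate 1 or 2 at 5 h (0.0991 and 0.0698).

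Hsc70-2 rose in GMCs as in NBs, from 0.41, 0.684 and 0.534 CPM at 1.5 h through 3.96 and 2.02 at 3 h to 43.2 and 31.8 at 5 h (log2 6.10 ± 0.738 from 1.5 h to 5 h, edgeR adjusted p = 2.16e-05). Hsc70Cb was 2.11-fold higher at 5 h (log2 1.08 ± 0.184, adjusted p = 0.000432) and Hsp83 1.69-fold higher (log2 0.76 ± 0.199, adjusted p = 0.0089; 0.0934 without GMC replicate 2 at 5 h). Hsc70-2 was the only member called higher at 5 h in both cell types. The comparisons with age share no libraries between NBs and GMCs, but both set 1 flow cell against another.

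**Figure D5:**
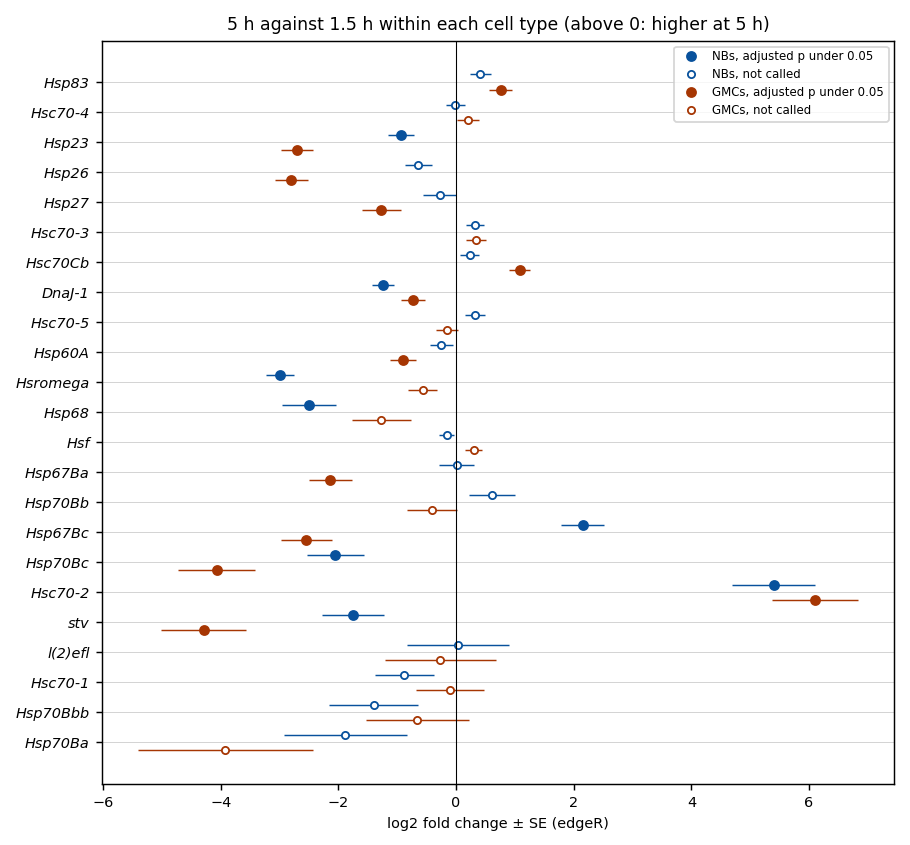
Log2 fold change of 5 h over 1.5 h with its standard error (edgeR) in NBs and in GMCs for 23 heat shock genes; filled points have an adjusted p under 0.05, and Hsp70Aa is left out because it had no counts in GMCs at 5 h. Hsc70-2 lies far to the right in both cell types, Hsp67Bc lies on opposite sides, and Hsromega is filled in NBs alone.

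Other chaperone genes were read from lists of pathway genes, whose counts stand beside 8.59%, 10.2% and 14.8% of all genes tested called higher and 8.97%, 10.5% and 14.0% called lower in GMCs at 1.5, 3 and 5 h. Of 23 tested cochaperones of Hsp70 and Hsp90, 2, 1 and 1 were higher and 2, 5 and 4 lower in GMCs at 1.5, 3 and 5 h, with median log2 fold changes of -0.01, -0.05 and -0.09. The J-domain gene Csp, known for synaptic vesicles, was lower in GMCs at every age (log2 -0.82, -1.07 and -0.75, edgeR adjusted p = 0.000392, 9.68e-05 and 0.000844). The Hsp90 cochaperone gene unc-45, which serves myosin folding, was lower at 3 h (log2 -1.54, 0.00256) and 5 h (log2 -2.55, 3.25e-05), and spag, another Hsp90 partner, at 1.5 h (log2 -0.82, 0.0051) and 3 h (log2 -1.27, 0.000535). Of 11 tested mitochondrial chaperones and proteases, 2, 2 and 3 were lower and 0 higher. Trap1, the mitochondrial Hsp90, was lower at each age (log2 -0.71, -0.99 and -1.02, adjusted p = 0.00243, 0.000473 and 0.000194).

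Of 15 tested genes of the endoplasmic reticulum and its stress response, 2, 3 and 4 were higher and 2, 1 and 0 lower in GMCs. Gp93, the Hsp90 of that compartment, was higher at each age (log2 0.53, 0.95 and 0.81, edgeR adjusted p = 0.0277, 0.00104 and 0.00218). Of 10 tested genes that act in transcription at heat shock promoters, 1, 3 and 6 were higher in GMCs and 0 lower, with medians of -0.09, 0.31 and 0.76. Trl, the GAGA factor, was higher at each age (log2 0.76, 1.30 and 1.39, adjusted p = 0.0153, 0.000663 and 0.000199), CycT at 3 and 5 h (log2 0.82 and 1.39, 0.0356 and 0.000765), and Nelf-A, a pausing factor subunit, at 3 and 5 h (log2 1.19 and 1.33, 0.00418 and 0.00111).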

How the data were processed

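The authors deposited, per labels' protocols and file headers, a table of raw read counts per gene for each of 16 libraries, made from oligo-dT primed cDNA with a Nextera kit that does not mark strand. The submitters' processing notes name DESeq2 1.12.4, HTSeq 0.6.1, bedtools 2.26.0, TopHat2 2.1.1 and BWA 0.7.12 without their roles, and neither an annotation nor a genome build is given. Gene symbols and positions came from the authors' deposited DESeq2 tables, whose other values were not used; all 29 members have the same position in Ensembl release 115 (genome release 6), which gave exon lengths. Summary entries (no feature 9.2% to 17.75%, ambiguous 1.42% to 2.09%, not unique 21.71% to 33.42%) stayed out of the tests.

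All 16 libraries in 6 groups were fitted with edgeR 4.0.16 (R 4.3.3, limma 3.58.1): TMM scaling, filterByExpr (minimum count 10, total 15; 10913 genes kept, 5451 removed), quasi-likelihood test, 9 comparisons, two-sided p-values, Benjamini-Hochberg adjustment over all genes tested. Levels are CPM at TMM library sizes. The procedure was tested on simulated data. A member was described in full if called in any comparison or among the 6 highest by CPM per kilobase; from each other list up to 3 genes with the smallest adjusted p in a GMC and NB comparison were eligible. There were 12 lists: 7 of chaperone and stress genes and 5 of cell type markers. Members and lists were chosen with earlier results of these data known. Alternatives were median-ratio scaling, scaling without CR43283, no low-count filter, DESeq2 1.42.0, removal of a gene-length trend, fitting just the compared groups, a replicate block, each library left out, and, chosen after seeing the data, the 6 Hsp70 copies summed. No sequences were used; the planned search for heat shock elements in promoters was not run.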

Additional observations from a re-analysis of the deposited data

Results flagged for a closer look

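For 7 heat shock genes the difference between GMCs and NBs differed between 1.5 h and 5 h by a test of the change itself. The edgeR adjusted p of this change was 0.000191 for Hsp67Bc, 0.000333 for Hsromega, 0.00106 for Hsp26, 0.00279 for Hsp23, 0.00644 for Hsp67Ba, 0.0346 for Hsc70Cb and 0.0356 for Hsp70Aa. Hsp67Bc went from higher in GMCs to lower, and the other 3 small heat shock genes went from no called difference to lower. Hsromega and Hsc70Cb went from no called difference to higher. Hsp70Aa rests on GMC libraries with no counts at 5 h. Age and flow cell cannot be told apart in this test.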

How the results depend on the processing

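Of 48 called values of single genes, 30 kept their call in all 23 alternatives, 18 lost it in some and 0 reversed direction. At 1.5 h, the 4 genes called between the cell types became 7 with the replicate block and 8 with only the groups compared. Over all genes, 1916 called became 1691 and 3001. For the change from 1.5 h to 3 h DESeq2 gave 1 in place of 0, beside 35 in place of 0 over all genes. For NBs at 3 h against 1.5 h DESeq2 gave 3 in place of 0, beside 229 in place of 11 over all genes. For GMCs at 3 h against 1.5 h, 1 became 4 with DESeq2, 2 with the replicate block, 7 with only the groups compared and 3 with the gene-length trend removed. Over all genes, 323 became 927, 411, 1589 and 629. All genes called in NBs at 3 h also went from 11 to 459 without NB replicate 1 at 5 h. The cause was not tested. Leaving out 1 library at a time gave 3 to 6 genes at 1.5 h, 2 to 6 at 3 h, 6 to 15 at 5 h, 0 to 0 and 5 to 8 for the changes to 3 and 5 h, 0 to 3 and 5 to 11 in NBs at 3 and 5 h, and 0 to 4 and 10 to 14 in GMCs. The lowest counts came without GMC replicate 1 at 3 h (2) and GMC replicate 2 at 5 h (6); without NB replicate 1 at 5 h, NBs at 3 h gave 3. Deviations of same-numbered NB and GMC libraries from their group means had correlations of -0.164 to 0.082 over genes. Differently numbered libraries had -0.162 to 0.164. With 2 or 3 libraries in a group, these values cannot decide whether the numbers pair the libraries. The labels state no pairing, and the replicate block is given for completeness. The median over all genes moved by up to 0.19 (log2), at 5 h without NB replicate 1. The 3 h fold changes rest on 2 GMC libraries, 1 of them the shallowest at 6899670 counts.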

Other observations

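Of 20 tested immediate early and stress genes, 1, 3 and 2 were higher and 2, 1 and 5 lower in GMCs at 1.5, 3 and 5 h, beside 8.59%, 10.2% and 14.8% of all genes tested called higher and 8.97%, 10.5% and 14.0% called lower. Jra, the fly Jun, was higher in GMCs at 1.5 h (log2 0.85, edgeR adjusted p = 0.0131) and 3 h (log2 1.58, 0.000293), while at 5 h its log2 fold change was 0.39 (0.256). Xrp1, a stress-induced transcription factor gene, was at 606 ± 104 CPM (SD, n = 3) in NBs and 1424 ± 86.1 (n = 2) in GMCs at 3 h (log2 1.23, adjusted p = 0.000843). Ilp8, a relaxin-like signal of tissue damage, was lower in GMCs at 5 h (log2 -4.40, adjusted p = 0.000633), at 6.14 ± 1.77 CPM in NBs and 0.292 ± 0.27 in GMCs.

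Of 14 tested cytosolic chaperonin and prefoldin genes, 0, 1 and 1 were higher in GMCs at the 3 ages and 0 lower, beside the same shares of all genes. CG7033, a chaperonin subunit gene, was the higher gene at 3 h (log2 0.70, edgeR adjusted p = 0.033) and 5 h (log2 0.65, 0.0359). Of 2 tested small heat shock genes outside the set, CG14207 was lower in GMCs at 5 h (log2 -0.70, adjusted p = 0.0255) and CG4461 was not called.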
